A study of Mus musculus with 12 samples.

Results

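Usp18 and 4 genes that attach the small protein ISG15 to other proteins, Isg15, Uba7, Ube2l6 and Trim25, were followed in whole-brain RNA of adult mice. Every probe set of the array annotated to one of these genes was taken, also where the annotation lists a further gene, which gave 9 probe sets for 5 of the 13319 genes named on the array. None of the 5 genes was without a probe set. The mice were untreated, were kept free of specific pathogens and belonged to 4 genotypes, each with 3 arrays. WT mice carry both genes intact, USP18ko mice lack Usp18, IFNARko mice lack Ifnar1, which encodes a chain of the type I interferon receptor, and USP18ko:IFNARko mice lack both (called the double knockout below). The labels give neither the strain, the sex, the age beyond adult, nor how either allele was made or in which cells it is deleted. They also leave unsaid whether replicates came from separate animals, so p-values cover only the spread among these arrays, part or all of which may be technical.

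ISG15 is a ubiquitin-like modifier. It is activated by the E1 enzyme UBA7, passed to the E2 enzyme UBE2L6 and joined to lysines of target proteins by a ligase, HERC6 in the mouse, with TRIM25 described as a further ligase for some targets. USP18 cleaves ISG15 from its targets and, separately from that activity, binds the receptor chain IFNAR2 and damps signalling by type I interferon. Most genes of this pathway are themselves induced by interferon through ISGF3, a complex that contains IRF9 and binds interferon-stimulated response elements.

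The promoters of these genes were read for that element, since several of the genes rose together. RefSeq sequence of build GRCm38.p6 was at hand for 4 of the 5 genes, Isg15, Uba7, Trim25 and Ube2l6, and not for Usp18. Shown for the 3 with a match are the 140 bases before to 10 bases after the annotated start, 5′ to 3′ on the gene's strand. Capitals mark every match, on either strand, to the core of the response element, which is GAAA, any 2 bases and GAAA again, or to AANNGAAA, a shorter site bound by interferon regulatory factors (IRFs). Isg15 lies on the minus strand at chr4:156200809-156200958, Uba7 on the plus strand at chr9:107975427-107975576 and Trim25 on the plus strand at chr11:88999263-88999412.
Isg15: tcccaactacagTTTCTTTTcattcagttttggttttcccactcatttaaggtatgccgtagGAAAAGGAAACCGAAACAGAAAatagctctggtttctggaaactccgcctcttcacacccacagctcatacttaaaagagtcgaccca
Uba7: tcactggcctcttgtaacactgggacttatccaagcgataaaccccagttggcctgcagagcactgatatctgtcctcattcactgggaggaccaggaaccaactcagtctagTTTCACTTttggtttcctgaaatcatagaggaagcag
Trim25: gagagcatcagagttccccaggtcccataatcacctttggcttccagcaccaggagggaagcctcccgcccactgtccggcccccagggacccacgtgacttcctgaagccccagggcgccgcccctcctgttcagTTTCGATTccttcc

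Within 250 bases before to 50 bases after the start, Isg15 held 3 overlapping matches to the core between positions -78 and -57, and Uba7, Trim25 and Ube2l6 held 0. Of 32851 promoters of that length, 3.44% held the core. AANNGAAA matched 4 times in Isg15, 3 of them inside the former run. It matched 1 time in Uba7 (positions -27 to -20) and 1 time in Trim25 (positions -4 to 4), with 0 matches in Ube2l6. That shorter site occurred in 23.9% of all promoters, so a single match is common. TTCNNNGAA, the gamma-activated site, had 0 matches in these 4 windows and occurred in 8.3% of promoters. A match is a description of the letters and not a measured binding site.

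**Figure D1:**
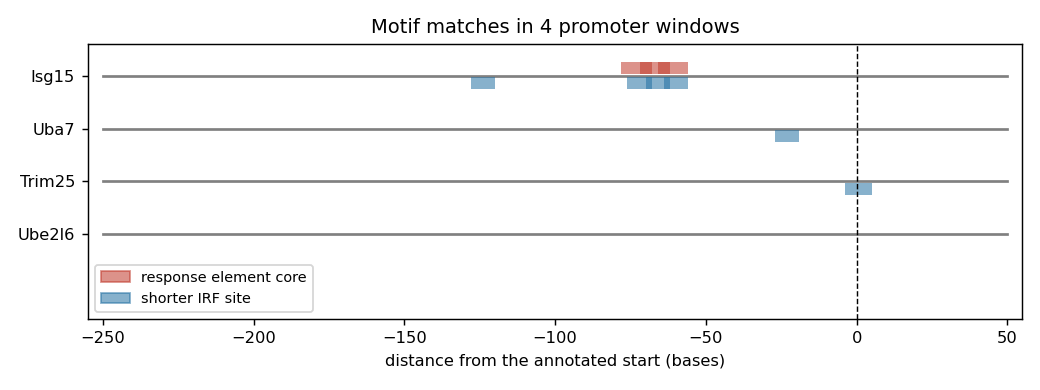
Positions of motif matches (horizontal axis, bases from the annotated start) in the promoter windows of Isg15, Uba7, Trim25 and Ube2l6, with the response element core above each line, the shorter IRF site below it and darker colour where matches overlap. Isg15 carries the 3 overlapping core matches, Uba7 and Trim25 carry 1 shorter site each, and Ube2l6 carries 0 matches.

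All values are log2 signals per probe set, and 22626 probe sets were compared in 1 limma fit of the 12 arrays. A probe set was called where the p-value adjusted by Benjamini-Hochberg over all of them was under 0.05. Signals could not be set against background here, so a low signal is not shown to be a measured transcript, and differences are given on the log2 scale without a linear fold. Neuron markers averaged 10.1 to 10.79 over the 12 arrays, which checks the brain label. The Ifnar1 probe set lay at 6.24 to 6.68 in the 6 arrays of the receptor knockouts and at 7.44 to 8.21 in the other 6. Xist, the transcript of the inactive X, was high in WT replicate 1 and all 3 double-knockout arrays (10.17 to 11.34) and 4.98 to 5.69 elsewhere. The Y-linked Eif2s3y was low (3.05 to 3.22) in WT replicate 1 and double-knockout replicates 1 and 3, and double-knockout replicate 2 had both signals. USP18ko and IFNARko each differ from the double knockout by this complete split in Xist, so genotype cannot be told apart from it in those comparisons, and the interaction carries it too. IFNARko replicate 1 had a 3′ to 5′ actin difference of 1.48, against 0.20 to 0.54 in the other arrays, a sign of more degraded RNA. Results that change without these arrays, or with Eif2s3y as a covariate, are named beside them.

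Usp18 itself, the targeted gene, had 1 probe set (1418191_at). Its signal was 4.36, 4.36 and 4.04 in WT. It was 3.76, 3.58 and 3.55 in USP18ko, and 3.50, 3.71 and 3.69 in the double knockout. In IFNARko, where Usp18 is intact, it was 3.55, 3.67 and 3.53. The 3 WT arrays were the highest and did not overlap any knockout group, while the 3 knockout groups overlapped one another.

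USP18ko lay below WT by -0.63 (SE 0.116, limma adjusted p = 0.0202, n = 3 each). The differences of IFNARko (-0.68, adjusted p = 0.134) and of the double knockout (-0.62, adjusted p = 0.536) from WT were of like size and were not called. They share the WT arrays with the first. The double knockout differed from IFNARko by 0.05, with a 95% confidence interval of -0.20 to 0.31. Because the receptor knockout alone sat at the level of both Usp18 knockouts, and the sources used here do not say where its probes lie relative to the deletion, the probe set does not check the USP18ko label. The mean over all arrays, 3.78, was higher than that of only 11% of probe sets, and the call was lost without WT replicate 1 (-0.57, adjusted p = 0.0983), WT replicate 2 (-0.57), USP18ko replicate 2 (-0.60) or USP18ko replicate 3 (-0.59). It was also lost with only both groups in the fit (adjusted p = 0.0964) and with Eif2s3y as a covariate (-0.61, adjusted p = 0.0529).

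Among the 9 probe sets 7 were called between USP18ko and WT, against 0.977% of all probe sets. Of these, 6 were higher in USP18ko, where 0.968% of all probe sets were, and 1 was lower (Usp18), where 0.00884% were. The 3 arrays of each group did not overlap for 7 member probe sets higher and 1 lower in USP18ko, against 4.1% and 5.41% of all. The median member difference was 1.13, beside -0.02 over all probe sets. Isg15, Uba7, Ube2l6 and Trim25 each had at least 1 probe set that rose.

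**Figure D2:**
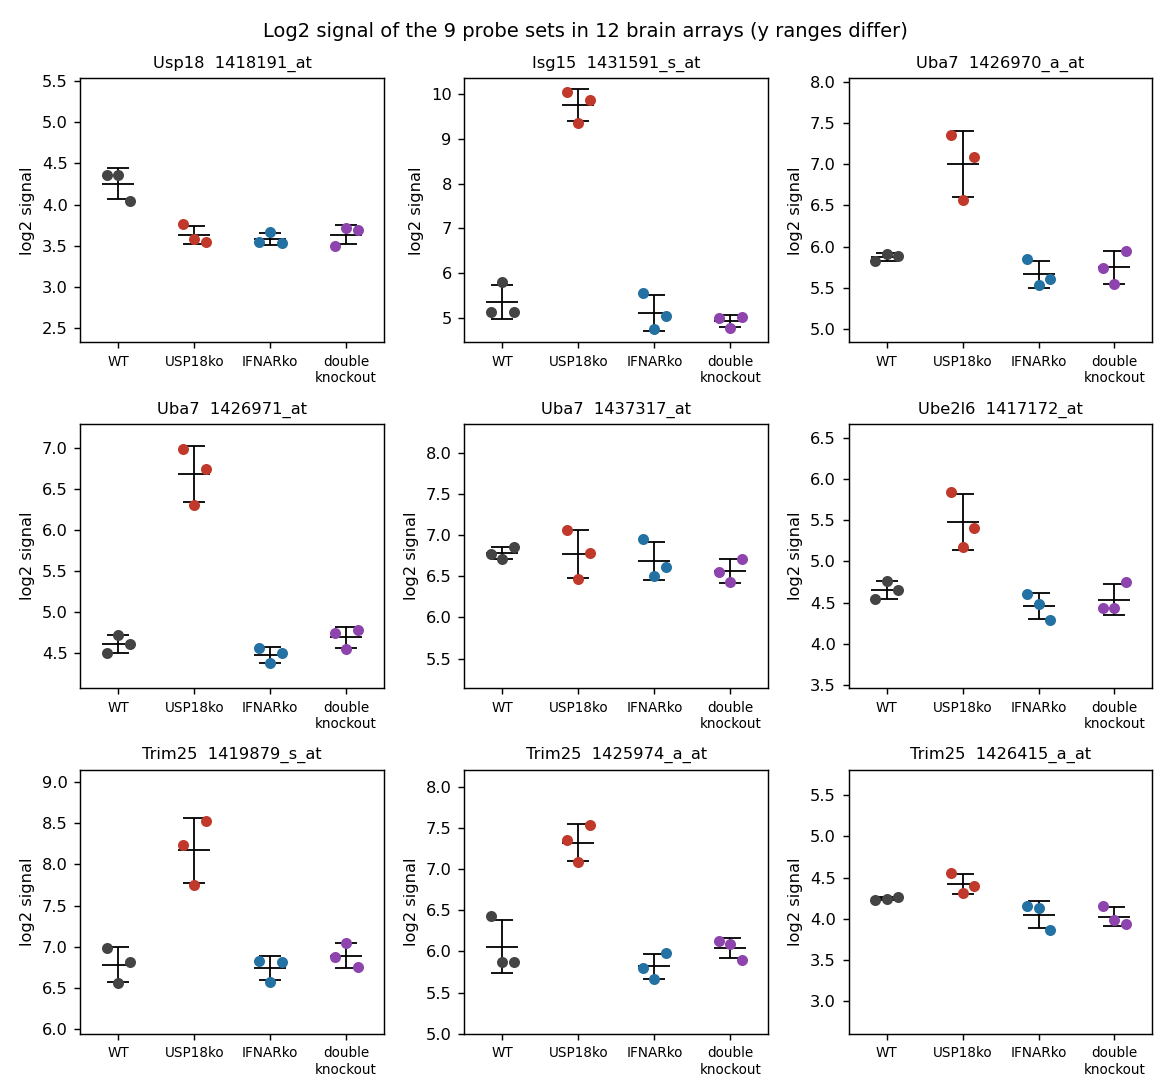
Log2 signal (vertical axes, ranges differ) of each of the 9 probe sets in the 12 arrays by genotype, with points for arrays and the cross line and bar for the mean and SD of 3 arrays. The USP18ko arrays stand above all others for Isg15, both rising Uba7 probe sets, Ube2l6 and the pair of called Trim25 probe sets, while for Usp18 the WT arrays are highest.

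Isg15, the modifier, was read by 1 probe set (1431591_s_at), whose annotation also lists the pseudogene Gm9706. Its signal was 5.12, 5.79 and 5.13 in WT and 10.06, 9.36 and 9.87 in USP18ko. It was 5.54, 4.75 and 5.04 in IFNARko and 4.99, 4.76 and 5.02 in the double knockout. The USP18ko arrays stood clear of all 9 others, and the remaining groups lay close together.

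USP18ko exceeded WT by 4.41 (SE 0.24, limma adjusted p = 6.6e-07, n = 3 each), the rank of 8 among the 22626 differences counted from the highest. With the receptor gene also deleted the signal fell by 4.84 from that of USP18ko (adjusted p = 2.22e-07). The effect of Usp18 loss without the receptor gene was -0.19 (double knockout minus IFNARko, 95% confidence interval -0.71 to 0.34). The difference between both effects, the interaction, was -4.60 (SE 0.34, adjusted p = 2.18e-05). In this bulk tissue, a change in the number of expressing cells and in RNA per cell cannot be told apart, here and for every gene below.

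A second probe set (1453939_x_at) is annotated to Gm9706 alone and shares its source transcript with the first in the annotation. It read 4.64, 4.69 and 4.70 in WT and 5.41, 4.97 and 5.0 in USP18ko, without overlap. The difference of 0.45 (SE 0.125) was not called (adjusted p = 0.274). How signal divides between Isg15 and its pseudogene cannot be read from these probe sets.

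Uba7, the E1 enzyme that activates ISG15, had 3 probe sets, and they did not move alike. The probe set 1426971_at read 4.50, 4.72 and 4.61 in WT and 6.99, 6.31 and 6.75 in USP18ko. In IFNARko it read 4.57, 4.38 and 4.51, and in the double knockout 4.75, 4.55 and 4.79. The USP18ko arrays were the 3 highest, and the other 3 groups overlapped their neighbours.

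This Uba7 probe set rose by 2.07 (SE 0.154, limma adjusted p = 9.04e-06, n = 3 each) in USP18ko over WT. It fell by 1.99 in the double knockout from USP18ko (adjusted p = 1.13e-05). Its interaction of -1.86 (SE 0.218, adjusted p = 0.000917) was called as well. Without the receptor gene the effect of Usp18 loss was 0.21, with a 95% confidence interval of -0.13 to 0.55.

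The second Uba7 probe set, 1426970_a_at, read 5.82, 5.91 and 5.89 in WT and 7.35, 6.57 and 7.09 in USP18ko. It read 5.85, 5.53 and 5.61 in IFNARko and 5.74, 5.55 and 5.95 in the double knockout. Again the USP18ko arrays did not overlap any other group. The rise over WT was 1.13 (SE 0.177, adjusted p = 0.0056) and the fall from USP18ko to the double knockout was by 1.25 (adjusted p = 0.00214). Its interaction of -1.04 was not called (adjusted p = 0.153), but was without USP18ko replicate 2 (-1.26, adjusted p = 0.014).

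The third Uba7 probe set, 1437317_at, read 6.77, 6.71 and 6.86 in WT and 7.06, 6.47 and 6.78 in USP18ko. It read 6.95, 6.50 and 6.61 in IFNARko and 6.55, 6.43 and 6.71 in the double knockout. In order of their means, each group overlapped the next. The USP18ko difference from WT was -0.01, with a 95% confidence interval of -0.35 to 0.34 that excludes the rises of the other Uba7 probe sets. Within arrays, 1426971_at minus 1437317_at was -2.27, -1.99 and -2.25 in WT and -0.07, -0.17 and -0.04 in USP18ko. The size of such a gap has no meaning between probe sets, but its shift by genotype shows that they did not change equally. Which transcripts each probe set detects was not known here. Averaged over the 3 probe sets, Uba7 rose by 1.06 (limma adjusted p = 0.00205).

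Ube2l6, the E2 enzyme that carries activated ISG15, had 1 probe set (1417172_at). Its signal was 4.54, 4.76 and 4.65 in WT and 5.84, 5.17 and 5.41 in USP18ko. It was 4.60, 4.48 and 4.29 in IFNARko and 4.43, 4.43 and 4.75 in the double knockout. USP18ko was highest without overlap, and its replicates spread over more than those of the other groups.

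Ube2l6 rose by 0.82 (SE 0.165, limma adjusted p = 0.0357, n = 3 each) in USP18ko, the smallest called rise among the member probe sets. It fell by 0.93 from USP18ko to the double knockout (adjusted p = 0.012), and its interaction was -0.74 (adjusted p = 0.574). The rise kept its direction in all 22 alternatives but lost its call in 13, among them the replicate block (0.82, adjusted p = 0.0829) and Eif2s3y as a covariate (0.83, adjusted p = 0.078). It was lost without WT replicate 1 (0.77, adjusted p = 0.177), 2 (0.88) or 3 (0.82), USP18ko replicate 1 (0.64, adjusted p = 0.119) or 3 (0.85), double-knockout replicate 1 or 2, or IFNARko replicate 2 (0.82 each). The fall lost its call in 3 alternatives, with Eif2s3y as a covariate (-0.95, adjusted p = 0.121) and without double-knockout replicate 1 or 2 (-0.88 each). Ube2l3, the closest relative of Ube2l6 and mainly a ubiquitin E2, was covered by 4 probe sets that each list 5 genes, with differences of -0.11 to 0.17 and 0 calls.

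Trim25, a ubiquitin ligase also described as an ISG15 ligase and known for activating the RNA sensor RIG-I, had 3 probe sets. The probe set 1419879_s_at read 6.98, 6.56 and 6.81 in WT and 8.24, 7.75 and 8.53 in USP18ko. It read 6.83, 6.57 and 6.82 in IFNARko and 6.88, 7.05 and 6.75 in the double knockout. The USP18ko arrays were the 3 highest, and the other groups overlapped.

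This Trim25 probe set rose by 1.39 (SE 0.183, limma adjusted p = 0.00136, n = 3 each) in USP18ko and fell by 1.28 in the double knockout from USP18ko (adjusted p = 0.00233). Its interaction was -1.23 (adjusted p = 0.065). Without USP18ko replicate 2 that interaction was called, at -1.45 (adjusted p = 0.0093), as it was with 1 probe set per gene (-1.23, adjusted p = 0.0401) and with gene-by-gene array weights.

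For 1425974_a_at, Trim25 signal was 6.43, 5.87 and 5.87 in WT and 7.35, 7.08 and 7.53 in USP18ko. It was 5.80, 5.67 and 5.98 in IFNARko and 6.13, 6.09 and 5.90 in the double knockout. WT replicate 1 was the highest array outside USP18ko and still lay below all 3 USP18ko arrays. The rise was 1.26 (SE 0.166, adjusted p = 0.00135) and the fall from USP18ko to the double knockout was by 1.28 (adjusted p = 0.00103). The interaction of -1.04 (adjusted p = 0.106) was called without WT replicate 1 (-1.22, adjusted p = 0.0172).

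The third Trim25 probe set, 1426415_a_at, was dim, at 4.23, 4.24 and 4.27 in WT and 4.55, 4.31 and 4.40 in USP18ko. It read 4.16, 4.13 and 3.86 in IFNARko and 4.16, 3.98 and 3.94 in the double knockout. USP18ko and WT did not overlap, but the difference of 0.17 was not called (95% confidence interval -0.07 to 0.41). The WT arrays also lay above both receptor-knockout groups, by 0.20 and 0.22 on average, again without a call. Within arrays, 1419879_s_at minus 1426415_a_at was 2.75, 2.32 and 2.54 in WT and 3.70, 3.44 and 4.13 in USP18ko. That is the Trim25 pair with the largest shift. Between the called probe sets, 1419879_s_at minus 1425974_a_at was 0.55, 0.68 and 0.94 in WT and 0.90, 0.67 and 1.00 in USP18ko, with overlap. Averaged over its 3 probe sets, Trim25 rose by 0.94 (limma adjusted p = 0.00107).

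**Figure D3:**
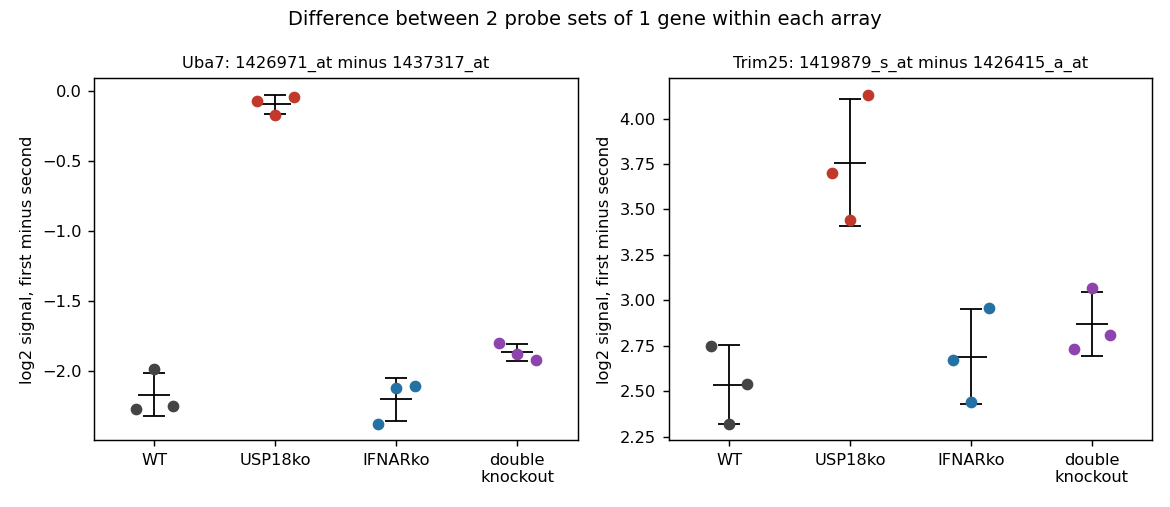
Difference in log2 signal between a pair of probe sets of the same gene within each array (vertical axis) by genotype, for Uba7 on the left and Trim25 on the right, with points for arrays and lines for the mean and SD of 3 arrays. Drawn for each gene is the pair whose mean gap differed most between USP18ko and WT, so the separation seen was selected. In USP18ko the gap lay between -0.17 and -0.04 for Uba7 and between 3.44 and 4.13 for Trim25, outside the values of the other 9 arrays.

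Removing the receptor gene from Usp18-deficient mice was accompanied by lower signal of 6 of the 9 probe sets, against 1.16% of all probe sets called lower. Without overlap, 7 of 9 were lower in the double knockout than in USP18ko, against 7.12% of all. The median member difference was -1.25, beside 0.01 over all probe sets. With Eif2s3y as a covariate 5 remained called, all but Ube2l6. Eif2s3y read 7.16 in double-knockout replicate 2 and 7.26 in USP18ko replicate 1, so that fit cannot adjust for the full split in Xist. No USP18ko array resembled the double knockout in Xist, so no comparison within arrays of like Xist was possible.

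Between the double knockout and IFNARko, where Usp18 differs and the receptor gene is absent from both, limma called 0 of the 9 probe sets and 0.0% of all. At an unadjusted p under 0.05, 0 of the 9 and 8.35% of all were found. Member differences ran from -0.19 (Isg15) to 0.22 (Trim25, 1425974_a_at). The double knockout and WT likewise gave 0 member calls by limma (0.0% of all), and 1 at an unadjusted p under 0.05 (Usp18, against 4.2% of all). In that comparison 3 of 9 member probe sets were lower without overlap, those of Usp18, Isg15 and Trim25 (1426415_a_at), against 9.68% of all. IFNARko and WT gave 0 member calls (0.0177% of all were called), with Usp18 alone at an unadjusted p under 0.05 (9.17% of all). Without overlap, Usp18 and Trim25 (1426415_a_at) were lower in IFNARko, 2 of 9, against 5.9% of all. Gene-by-gene array weights called Usp18 and 1426415_a_at of Trim25 in IFNARko and Usp18 in the double knockout, among 2884 and 2306 calls over all probe sets. The weights were 4.91 for WT replicate 3, 0.256 and 0.458 for WT replicates 1 and 2, and 0.0811 for IFNARko replicate 1. The weighted WT mean thus rests mainly on replicate 3.

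The interaction asks whether the effect of Usp18 loss differed with and without the receptor gene. Isg15 and 1426971_at of Uba7 were called, 2 of 9 probe sets, against 0.703% of all. The median member interaction was -1.04, beside 0.01 over all probe sets. For the remaining 4 probe sets that rose in USP18ko, values ran from -1.23 to -0.74, and a difference between both effects was not shown. The Usp18 interaction was 0.68 (adjusted p = 0.156). With Eif2s3y as a covariate the same 2 probe sets were called, Isg15 at -4.51 (adjusted p = 0.00148) and Uba7 at -1.92 (adjusted p = 0.0201). That covariate does not follow the split in Xist, which the interaction still carries.

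**Figure D4:**
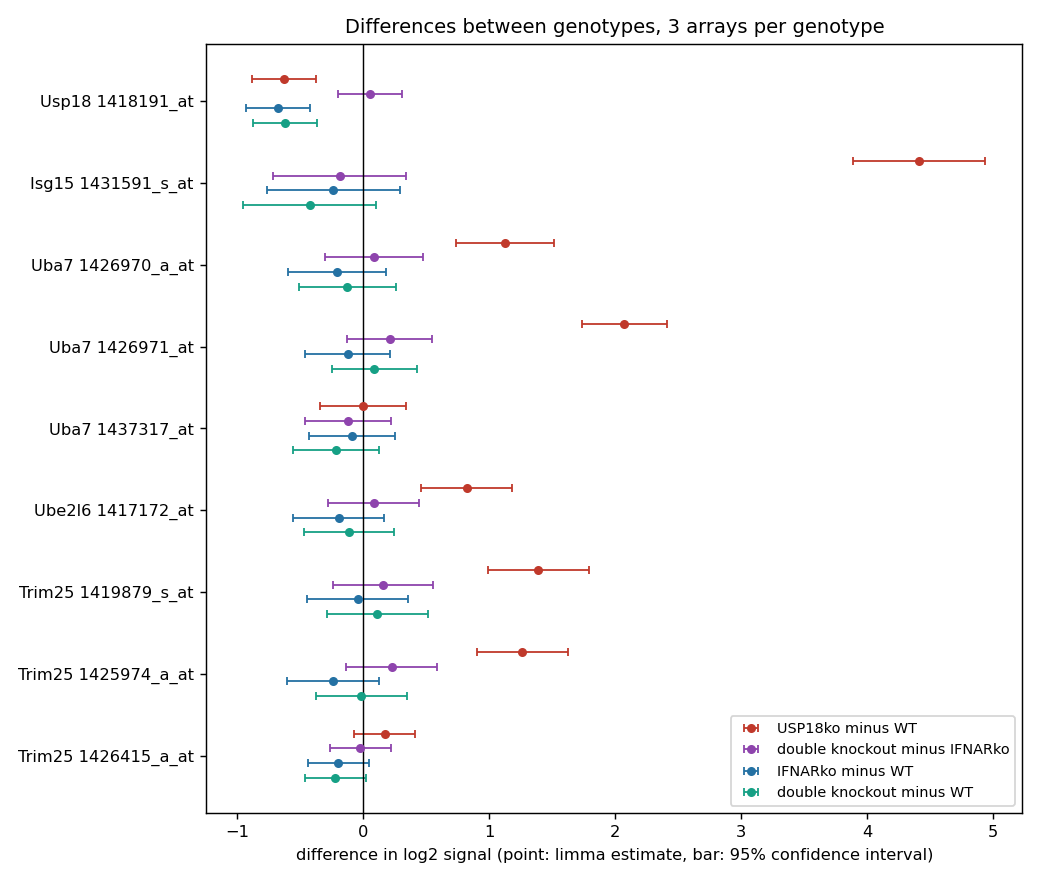
Differences in log2 signal (horizontal axis) of the 9 probe sets for 4 comparisons, as limma estimates (points) with 95% confidence intervals (bars). The differences of USP18ko from WT reach 4.41 for Isg15, while those of the double knockout from IFNARko lie between -0.19 and 0.22.

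The 3 USP18ko arrays differed among themselves in step. Replicate 2 was the lowest of the 3 for 6 of the 6 member probe sets that rose, and replicate 1 was the highest for 4. Among the 213 other probe sets called higher, replicate 2 was the lowest in 40.8% and replicate 1 was the lowest in 43.2%. In those, replicate 1 was the highest in 25.4% and replicate 3 in 46.5%. These probe sets share RNA and array, so the order is a description of 3 arrays.

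Genes of neighbouring function were mostly not called between USP18ko and WT. Of 7 measured genes of the other ISG15-linked ligases and proteases (9 listed, with Herc6 and Herc3 not analysed here), 0 were called in USP18ko by limma, with differences of -0.26 to 0.10 and a median of -0.01. Of 12 measured E1 and E2 enzymes of ubiquitin and other modifiers (20 listed), 0 were called, with differences of -0.16 to 0.09. Of 9 measured ubiquitin-like modifiers (15 listed), 0 were called. Ubd, the interferon-induced modifier FAT10, had the highest value of these, 0.36. Among 38 other Usp genes, the family of deubiquitinases to which Usp18 belongs by sequence, 0 were called and the median was -0.01. Among 38 other Trim genes 2 rose, Trim30a by 2.08 (SE 0.308, adjusted p = 0.0034) and Trim21, an antibody receptor in the cytosol, by 1.19 (SE 0.188, adjusted p = 0.0056). The Trim median was -0.02.

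Groups tied to interferon signalling or ISG15 binding had higher medians. Of 8 measured genes on a joint list of Usp18 partners and type I interferon signalling, 2 rose and the median difference was 0.13. Irf7, the transcription factor that drives later interferon production, rose by 3.40 (limma adjusted p = 1.81e-08), and Irf9, the DNA-binding part of ISGF3, by 0.88 (adjusted p = 0.00172). Stat2 differed by 0.62 and Ifnar2, the chain that USP18 binds, by 0.18, and neither was called. The list for RNA sensing with Trim25 had 3 measured genes, with a median of 0.32, and the gene of RIG-I itself was not analysed here. Ifih1, the sensor MDA5, rose by 2.41 (limma adjusted p = 1.72e-05). The ligase Rnf135 differed by 0.32 and the adaptor Mavs by 0.03, and neither was called. Of both chains of the integrin that binds extracellular ISG15, with a median of 0.52, Itgb2 rose by 1.14 (adjusted p = 0.000944) and Itgal differed by -0.10. Irf7, Irf9, Ifih1 and Itgb2 were all called lower in the double knockout than in USP18ko, where Irf7 fell by 3.76, Irf9 fell by 1.26, Ifih1 fell by 2.72 and Itgb2 fell by 1.39. Rnf135 fell there by 0.68 (adjusted p = 0.0175).

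**Figure D5:**
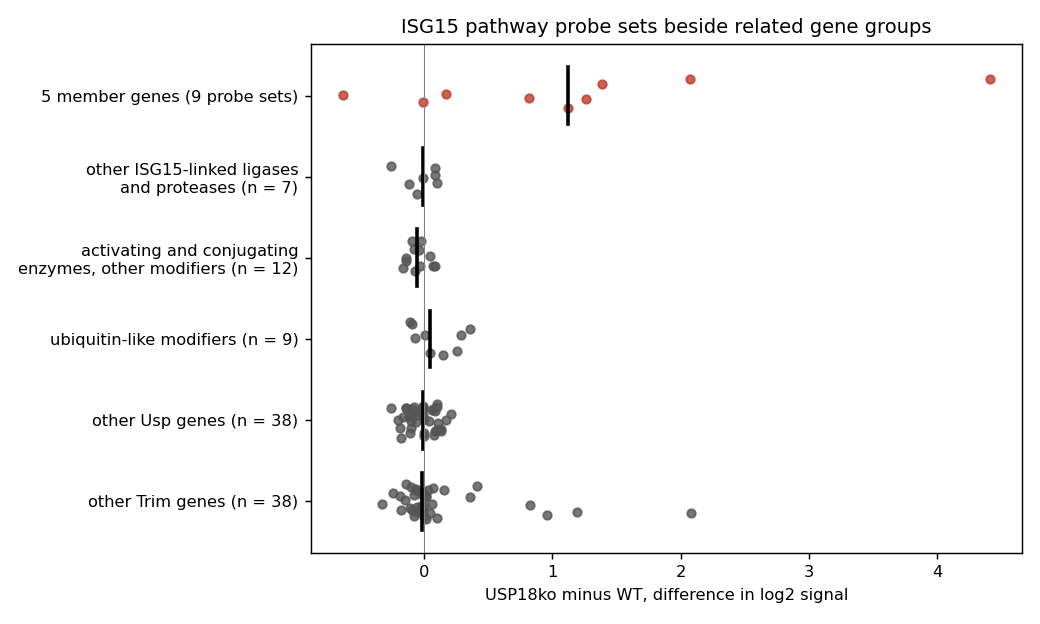
USP18ko minus WT in log2 signal (horizontal axis) for the 9 member probe sets and for genes of 5 related groups, 1 point per probe set or gene, spread vertically only to separate points, with a bar at each median. The member median is 1.13, and the medians of the 5 groups drawn here lie between -0.05 and 0.05.

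Markers of microglia also moved with genotype. Of 9 measured markers 4 rose in USP18ko, Aif1 by 1.93, Laptm5 by 1.25, Itgam by 0.80 and C1qa by 1.79. The others were not called, and differences over the list ran from -0.35 to 1.93 with a median of 0.89. The mean signal over the list was 7.80 to 8.43 in the USP18ko arrays and 6.64 to 7.62 in WT. It was 7.00 to 7.11 in IFNARko and 7.02 in each double-knockout array. Of 4 measured monocyte and neutrophil markers 1 was called, Plac8, which rose by 3.35. Differences over that list ran from 0.19 to 3.35 with a median of 1.76. Its mean signal was 5.86 to 6.21 in the USP18ko arrays and 4.19 to 4.28 in WT. It was 4.09 to 4.99 in IFNARko and 4.15 to 5.12 in the double knockout. Of 7 lymphocyte markers 0 were called. The part of these cells in the rise of Isg15, Uba7, Ube2l6 and Trim25 was not tested.

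Over the 12 arrays, the probe sets most like each member were found by Pearson correlation, given without a test. For the members called higher in USP18ko, this correlation mainly follows the 3 USP18ko arrays. Isg15 was most like Psmb9, an immunoproteasome subunit (r = 0.997), Trim30a (0.996) and Ifit1, which binds foreign RNA (0.995), and 170 of 20372 probe sets reached 0.9. For Uba7 1426971_at the closest were Oas1a (0.987), Trim30a (0.986) and Psmb9 (0.986), and for 1426970_a_at they were BC023105 (0.974), Dhx58 (0.970) and Psmb9 (0.969). Ube2l6 was most like the Gm9706 probe set (0.966), BC023105 (0.959) and Dock8 (0.955). Trim25 1419879_s_at was closest to Plekha4 (0.968), Gbp2b (0.966) and H2-Aa (0.966), and 1425974_a_at to Znfx1 (0.977), Tap2 (0.969) and H2-D1 (0.967). The probe sets without a call were closest to other genes, Fpr-rs3 (0.929), Kcnk7 (0.922) and Krtap28-13 (0.921) for Uba7 1437317_at and Il1rn (0.962), Mib1 (0.921) and Cldn2 (0.917) for Trim25 1426415_a_at. Usp18 had yet other neighbours, Slc25a10 (0.928), Snx21 (0.916) and Rell2 (0.9), and its correlation with Isg15 was -0.22. Among the members, Isg15 had r of 0.986 with Uba7 1426971_at, 0.963 with Uba7 1426970_a_at, 0.937 with Ube2l6 and 0.936 with both called Trim25 probe sets.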

How the data were processed

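RNA of whole-brain lysates was labelled with biotin and hybridised to Affymetrix arrays read in 1 colour, per the labels' protocols. Deposited were log2 signals, 1 per probe set and array, already processed by the authors; affy, an R package, is the tool that the submitters' processing notes name. The sources used here do not give its version, background correction, normalization or probe summary. Base 2 was inferred from the range of 2.36 to 13.81, with array medians of 6.98 to 7.07.

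Of 22690 probe sets, 64 controls were left out. The platform annotation gave 1 gene for 20380 of the rest, and several for 691, while 1555 were not listed and are unnamed here. Log2 signals of 22626 probe sets were fitted with limma 3.58.1 in R 4.3.3 (lmFit, contrasts.fit, eBayes), with a mean per genotype over 12 arrays, 8 residual and 3.79 prior degrees of freedom. Tests were two-sided, adjusted by Benjamini-Hochberg over all probe sets, and called at 0.05. An exact test of 3 against 3 arrays cannot go below 0.1. The fit was tested on simulated data. No replicate pair was identical, and the number of arrays limits precision.

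Members, lists and the rule for named genes were chosen with earlier results of these data known. Named were all member probe sets, the 3 most correlated non-member probe sets of 1 gene, up to 4 called genes per list, relatives and array checks. Further genes (Ubd, Stat2, Ifnar2, Rnf135, Mavs and Itgal) are named to complete their lists and were chosen after their values were seen. A gene of a list is read by its probe set with the highest mean. Replicate numbers were checked by correlating deviations from group means. In 6 of 18 same-numbered pairs r was over 0.1, among them all 3 of USP18ko with the double knockout (0.101, 0.256 and 0.146). USP18ko replicate 1 with double-knockout replicate 3 gave 0.1, and differently numbered pairs of other groups reached 0.271. Whether the numbers pair arrays is not settled by that measure, and a fit with the replicate block was run for every comparison. Alternatives changed the feature, filter, normalization, variance model, array weights, covariates and arrays.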

Additional observations from a re-analysis of the deposited data

Results flagged for a closer look

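For Isg15 (1431591_s_at) the effect of Usp18 loss differed with and without the receptor gene, by a tested interaction of -4.60 on the log2 scale (limma adjusted p = 2.18e-05). The effect was 4.41 with the receptor gene, higher in 3 of 3 USP18ko arrays than in any WT array, and -0.19 without it. For Uba7 (1426971_at) the same interaction was -1.86 (adjusted p = 0.000917), from effects of 2.07 and 0.21. Both interactions carry the split in Xist named above, from which genotype cannot be told apart. Groups of 3 arrays are too small for the test of single outlying samples.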

How the results depend on the processing

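No member difference that was called turned its sign under any alternative run. Of the values of single member probe sets under alternatives, 1097 stayed on their side of the threshold, 12 gained a call and 22 lost one. All losses were for Ube2l6 or Usp18, and the gains were for Trim25, Uba7 and Usp18. For USP18ko against WT, 7 of 9 probe sets were called. With the highest probe set per gene 3 of 4 genes were called, with averaged probe sets 4 of 4, and above the 40th percentile of signal 3 of 4 probe sets. For the double knockout against USP18ko, 6 called became 2, 3 and 3 in those fits, and for the interaction 2 became 1, 0 and 1. These fits hold fewer members by construction, and Isg15, whose probe set lists a second gene, is absent from the per-gene fits. With the highest probe set per gene neither probe set called for the interaction is in the fit, and its 1 call is a gain, Trim25 1419879_s_at (adjusted p = 0.0401, against 0.065). The filter at the 40th percentile is no independent check, since Isg15 and Trim25 1425974_a_at passed it at 40.4 and 40.6 through the USP18ko arrays, without which they lie at 26.8 and 36.5. Gene-by-gene array weights, chosen after seeing the data because the planned default estimate did not converge and was not used, called 2 for IFNARko against WT and 1 for the double knockout against WT, where 0 were called, and 5 for the interaction; the cause was not tested. Leaving out each array gave 5 to 7, 5 to 6 and 2 to 4 calls for USP18ko against WT, the double knockout against USP18ko and the interaction, with 4 reached without USP18ko replicate 2, and 0 throughout for the other 3.

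Over all probe sets, 221 calls of USP18ko against WT became 143 (highest probe set), 154 (average), 63 (above the 40th percentile) and 523 (weights). The 270 of the double knockout against USP18ko became 187, 197, 75 and 598, and 441 with only both groups in the fit, 173 with Eif2s3y as a covariate and 464 when WT replicate 1 and IFNARko replicate 1 were both left out. The 159 of the interaction became 105, 105, 47 and 357, and 71 with the covariate. The 4 of IFNARko against WT ranged from 0 to 23, apart from 2884 with weights. The 0 of the double knockout against WT reached 41 without that pair of arrays and 2306 with weights, and the 0 against IFNARko reached 3 and, with weights, 241. Same-numbered arrays were not shown to share more than a number, with r of -0.261 to 0.256, against -0.289 to 0.271 for differently numbered pairs. The replicate block gave 6 calls for USP18ko against WT, losing Ube2l6, 6 for the double knockout against USP18ko and 2 for the interaction, and changed no other member call. Detection against background was not measured, which limits the dim probe sets of Usp18, Ube2l6 and Trim25 (1426415_a_at) most.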
